A study of Mus musculus with 30 samples.

Results

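The clock output genes are 8 transcripts that the circadian clock of the liver drives or that feed back on it: Dbp, Tef, Hlf, Nfil3, Ciart, Usp2, Bhlhe40 and Bhlhe41. They were taken by gene symbol from the 29117 genes of the series, all 8 were found, and no symbol was repeated. The mice were C57BL/6J animals of 10 weeks, an inbred laboratory strain, fasted for 12 to 16 h and given an intraperitoneal injection of human insulin at 0.7 U/kg or of phosphate-buffered saline (PBS), the vehicle. Poly(A) RNA of the left liver lobe was sequenced at 5 sampling points within 4 h of the injection, with 3 libraries per treatment and point, that is 15 insulin and 15 PBS libraries. The series design calls the libraries of a group biological triplicates. The labels number the points 1 to 5 and give no minutes, so point 1 is not taken here as an uninjected baseline. Along each course the clock time, the length of the fast and the time since the injection may all change, and they cannot be told apart.

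In the clock of mammalian cells, CLOCK and BMAL1 bind E-box sequences such as CACGTG and switch on their own repressors, the period and cryptochrome genes, together with output genes. Dbp, Tef and Hlf encode the PAR bZIP transcription factors, which activate genes through D-box sequences, and in liver they are known as activators of genes of drug and bile acid metabolism. NFIL3, also called E4BP4, binds the same D-boxes and represses. CIART (also called CHRONO), BHLHE40 (DEC1) and BHLHE41 (DEC2) repress transcription driven by CLOCK and BMAL1, and USP2 is a deubiquitinase that acts on clock proteins. Per1, Nfil3 and Bhlhe40 are also known to respond quickly to hormones and growth factors.

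Levels are in FPKM, in which fragments are scaled by transcript length and by library total, so those of different genes can be set beside each other. The depth of the libraries is unknown, because the low values did not resolve into whole reads. Across genes, pairs of libraries within a group had a Pearson r between 0.982 and 0.991. Insulin and PBS libraries were on separate sequencing lanes, and the effects of lane and treatment cannot be told apart. Differences were tested with limma on log2(FPKM + 1), with p-values adjusted by the Benjamini-Hochberg method over 13589 genes, and below a gene rose or fell where the adjusted p was under 0.05. A difference on this scale understates the change of low genes. The median difference of all genes, insulin minus PBS, was -0.06, -0.12, -0.14, -0.14 and -0.17 at points 1 to 5, and both scalings tried brought it to within 0.014 of 0. The 6 hepatocyte markers summed to 36900 to 51500 FPKM in the insulin libraries and 41700 to 51900 FPKM in the PBS libraries, with none at 0 in every library. In bulk tissue, fewer cells of a type and less RNA per cell cannot be told apart. The 4 sinusoidal endothelial markers summed to 28.6 to 44.2 FPKM in insulin libraries against 39.1 to 57.0 FPKM in PBS libraries, and the 6 Kupffer cell markers to 48.3 to 104 FPKM against 63.2 to 185 FPKM. The part of these cells in the results below was not tested.

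Both arms shared a broad rise of clock output transcripts away from point 1. In the insulin arm, point 2 against point 1, 4 of the 7 members that could be tested rose (Nfil3, Ciart, Usp2 and Bhlhe40), where 3.22% of all genes were called and 2.06% were called higher. At points 3, 4 and 5 of the insulin arm 5 members rose (Dbp, Tef, Ciart, Usp2 and Bhlhe40), where 8.96%, 9.65% and 9.6% of all genes were called and 4.74%, 5.29% and 3.51% were called higher. Along the PBS course 2 members rose at point 2 (Usp2 and Bhlhe40), and the same 5 rose at points 3, 4 and 5. The share of all genes called in the PBS arm was 0.552%, 2.38%, 2.86% and 1.55% at points 2 to 5, and 0.471%, 1.82%, 2.1% and 1.07% were called higher. No tested member fell against point 1 in either arm. The 5 calls at point 5 of the PBS arm, and those of Usp2 and Bhlhe40 at its point 2, did not hold when the 6 libraries compared were fitted alone (adjusted p of 0.0685 to 0.0922 at point 5, and 0.381 and 0.0973 at point 2). Each arm's 4 comparisons use the same 3 libraries of point 1. The eighth member, Bhlhe41, did not pass the filter on low values (1 FPKM or more in at least 3 libraries).

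Between treatments at the same point, fewer members differed. None differed at point 1 (0.00736% of all genes called), where 1 member had an unadjusted p under 0.05. Nfil3 was higher in insulin livers at point 2, when 1.35% of all genes were called and 0.618% were called higher. At point 3, 3 members were called (9.45% of all genes), Nfil3 higher (2.19% of all genes higher) and Dbp and Hlf lower in insulin livers (7.26% lower). Dbp was the 1 member called at point 4 (13.2%) and at point 5 (19.1%), lower both times, as were 10.4% and 16.1% of all genes. The members' median difference was -0.36, 0.42, -0.36, -0.49 and -0.40 at points 1 to 5, beside the all-gene medians given above. Nfil3, a D-box repressor, and Dbp, a D-box activator, were thus the members called at more than 1 point, in opposite directions.

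**Figure D1:**
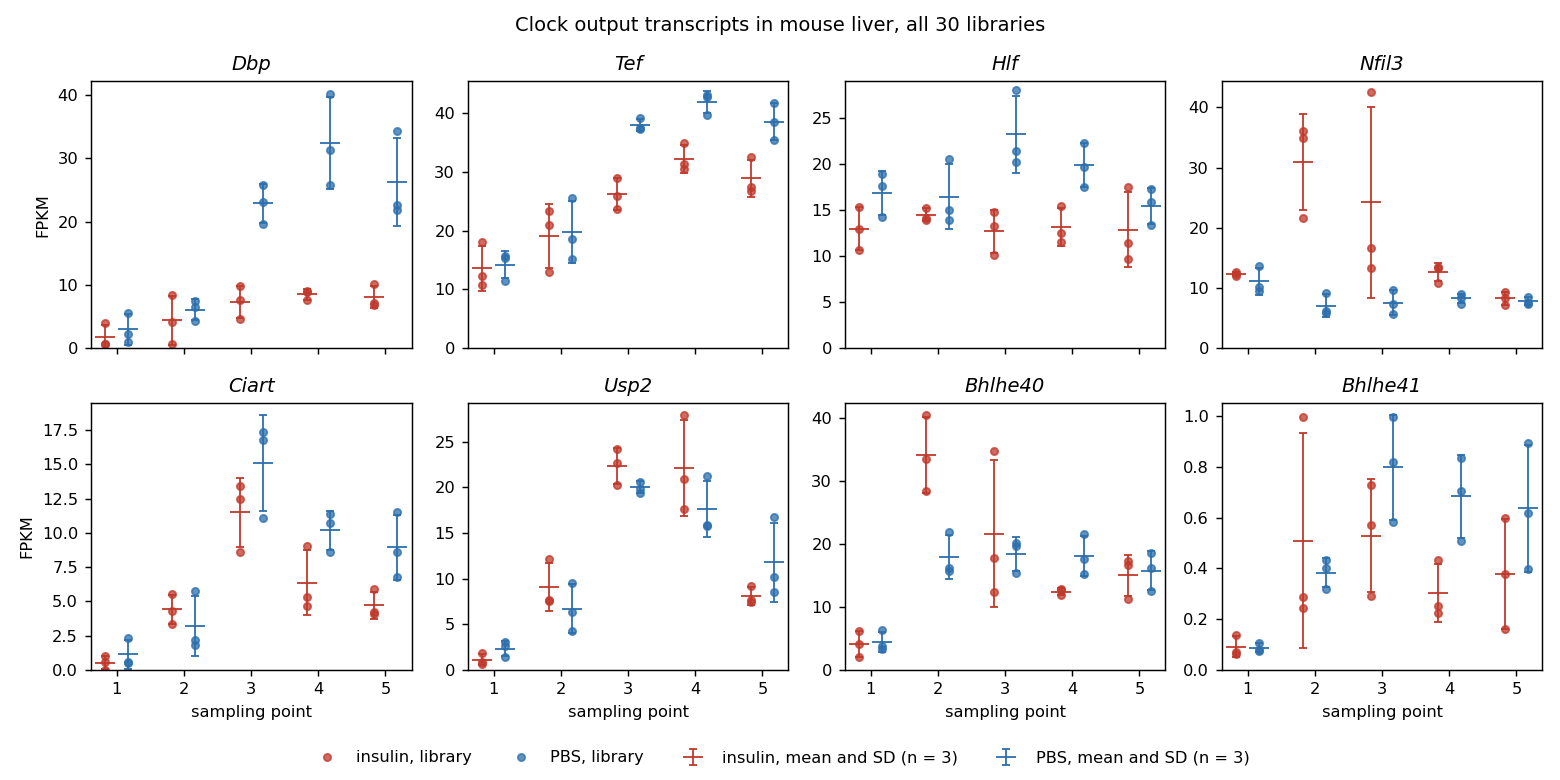
FPKM (y axis) of the 8 clock output genes at sampling points 1 to 5 (x axis) in every library, insulin in red left of PBS in blue; points are libraries and bars are the mean with SD of 3 libraries. Dbp reaches 25.8 to 40.2 FPKM in the PBS libraries of point 4 while no insulin library exceeds 10.1 FPKM, and Nfil3 is at 21.6 to 36.1 FPKM in the insulin libraries of point 2.

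Over all 30 libraries Tef had the highest mean, at 27.2 FPKM, followed by Bhlhe40 at 16.2, Hlf at 15.8, Nfil3 at 13.0, Dbp and Usp2 at 12.1 each, Ciart at 6.61 and Bhlhe41 at 0.440 FPKM. In each neighbouring pair of this order the ranges over the libraries overlapped. Bhlhe41 never reached 1 FPKM, with a highest value of 0.998 FPKM.

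Dbp, the albumin D-box binding protein, was lower in insulin livers than in PBS livers at points 3, 4 and 5. On the plus strand of chromosome 7, it spans 45705088 to 45710203 (GRCm38). In the insulin arm the 3 libraries had 0.657, 0.594 and 4.01 FPKM at point 1, 4.22, 8.41 and 0.681 FPKM at point 2, 7.55, 4.59 and 9.77 FPKM at point 3, 9.02, 7.56 and 8.93 FPKM at point 4, and 7.20, 10.1 and 6.86 FPKM at point 5. In the PBS arm they had 2.26, 5.64 and 1.01 FPKM at point 1, 4.29, 7.52 and 6.45 FPKM at point 2, 23.1, 19.7 and 25.8 FPKM at point 3, 25.8, 31.4 and 40.2 FPKM at point 4, and 22.7, 34.3 and 21.8 FPKM at point 5. The arms overlapped at points 1 and 2, and from point 3 every insulin library lay below every PBS library, as did 27.8%, 24.3% and 29% of all genes at points 3, 4 and 5. Replicate 3 stood apart in the insulin arm, high at point 1 and low at point 2, for Dbp and likewise for Tef. Nfil3, Bhlhe40 and Usp2 were higher at point 2 than at point 1 in replicate 3, as in the other replicates. Replicate 3 had 12.4 FPKM at point 1 and 36.1 FPKM at point 2 for Nfil3, 6.11 and 33.5 FPKM for Bhlhe40, and 1.79 and 7.53 FPKM for Usp2. It was still the highest at point 1 for Bhlhe40 and Usp2, and the lowest at point 2 for Usp2. Its log2 change to point 2 was the smallest of the insulin series for Bhlhe40, Usp2 and Ciart, at 2.28, 1.61 and 1.45. For Nfil3 that change was the largest, at 1.47. Some results of Dbp and Tef that rest on these 2 libraries are also given without them.

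Against PBS, Dbp in insulin livers differed by -1.57 ± 0.47 at point 3 (SE, adjusted p = 0.0376), -1.80 ± 0.47 at point 4 (adjusted p = 0.016) and -1.58 ± 0.47 at point 5 (adjusted p = 0.0219). Relative to the median of all genes these differences were -1.42, -1.65 and -1.41. The mean in insulin livers was 0.319, 0.262 and 0.306 times that in PBS livers at these points. All 3 calls ended with a pseudocount of 0.1 (adjusted p = 0.0956, 0.0544 and 0.0699). The call at point 3 ended under 9 of 14 alternatives, among them median-ratio scaling (adjusted p = 0.0637), quantile normalization (0.0597), and leaving out insulin replicate 1 or 2 (0.0792 and 0.14) or PBS replicate 1, 2 or 3 (0.0889, 0.072 and 0.113). The call at point 4 ended without insulin replicate 2 (0.0632) or PBS replicate 3 (0.0719), and that at point 5 without insulin replicate 1 or 3 (0.0775 and 0.0645) or PBS replicate 2 (0.0797). At points 1 and 2 the differences were -0.57 and -0.67 (adjusted p = 0.782 and 0.46), and they were -1.11 and 0.01 without insulin replicate 3.

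Within each arm, Dbp was lowest at point 1 and highest at point 4. Its mean at point 4 was 4.85 times that at point 1 in insulin livers and 10.9 times in PBS livers. At point 2 the log2 change was 0.88 ± 0.47 in the insulin arm (adjusted p = 0.427, and 0.0549 to 0.916 over the alternatives). In the PBS arm it was 0.98 ± 0.47 (adjusted p = 0.542). On the log2 scale the rise in the insulin arm was 1.76, 2.00 and 1.92 ± 0.47 at points 3, 4 and 5 (adjusted p = 0.0173, 0.00651 and 0.00991), and in the PBS arm it was 2.76, 3.23 and 2.93 ± 0.47 (adjusted p = 0.00123, 0.000195 and 0.000949). The insulin call at point 3 ended without replicate 1 or 2 of point 1 (adjusted p = 0.085 and 0.102) or replicate 1 or 3 of point 3 (0.0522 and 0.0843), and that at point 5 without replicate 2 of point 1 (0.065), and both ended when the 6 libraries compared were fitted alone (0.1 and 0.0667). Without the high replicate 3 of insulin point 1, the rises in the insulin arm were 2.30, 2.54 and 2.46. The difference between the 2 courses was itself not called: it was -1.23 and -1.01 ± 0.67 at points 4 and 5 (adjusted p = 0.482 and 0.532; 0.705 at point 3), with a 95% interval at point 4 of -2.61 to 0.16. None of the 21 alternatives, which include leaving out each library compared, called it (lowest adjusted p of 0.451, 0.282 and 0.294 at points 3, 4 and 5). A smaller rise in the insulin arm is therefore not shown.

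Exons of Dbp overlap those of Sphk2, a sphingosine kinase gene on the opposite strand that was measured at 4.43 to 20.2 FPKM. Although the library kit is directional, the strand setting of the authors' quantification is not given in the sources used here, so reads of the pair could not be told apart with certainty. Sphk2 averaged 12.6, 6.53, 5.95, 7.88 and 10.2 FPKM in insulin livers and 17.1, 15.0, 13.6, 13.6 and 15.1 FPKM in PBS livers at points 1 to 5. It was lower in insulin livers than in PBS livers by 1.07, 1.09 and 0.75 ± 0.23 at points 2, 3 and 4 (adjusted p = 0.0146, 0.00521 and 0.0331). In the PBS arm, where Dbp rose, Sphk2 differed from point 1 by -0.26 at points 3 and 4 (adjusted p = 0.704 and 0.647). Exons of Tef, Usp2, Bhlhe40 and Bhlhe41 also overlap those of genes on the opposite strand, and those with values reached at most 2.05 FPKM.

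Tef, the thyrotroph embryonic factor, rose in both arms. It spans the plus strand of chromosome 15 at 81802421 to 81826863. Its insulin libraries had 10.7, 12.2 and 18.0 FPKM at point 1, 21.0, 23.4 and 12.9 FPKM at point 2, 25.9, 23.6 and 28.9 FPKM at point 3, 30.4, 31.3 and 34.9 FPKM at point 4, and 32.5, 26.7 and 27.5 FPKM at point 5. Its PBS libraries had 15.3, 15.6 and 11.5 FPKM at point 1, 18.6, 25.5 and 15.1 FPKM at point 2, 37.5, 39.1 and 37.3 FPKM at point 3, 42.8, 39.7 and 43.1 FPKM at point 4, and 38.5, 41.7 and 35.4 FPKM at point 5. As with Dbp, all insulin libraries lay below all PBS libraries at points 3, 4 and 5 (27.8%, 24.3% and 29% of all genes). The rise against point 1 was 0.92, 1.21 and 1.06 ± 0.19 in the insulin arm (adjusted p = 0.00204, 0.000105 and 0.000559; 1.12, 1.41 and 1.26 without replicate 3 of point 1), and 1.37, 1.51 and 1.39 ± 0.19 in the PBS arm (adjusted p = 8.75e-05, 2.99e-05 and 0.000107). At point 2 the insulin arm differed by 0.45 (adjusted p = 0.248), by 0.69 without its low replicate 3 of point 2 (adjusted p = 0.0412), and by 0.65 without its replicate 3 of point 1 (adjusted p = 0.0896). Between treatments, Tef differed by -0.53, -0.37 and -0.40 ± 0.19 at points 3, 4 and 5 (adjusted p = 0.0733, 0.184 and 0.128), which missed the threshold. At point 3, 1 of 14 alternatives called it, the fit of the 6 libraries of that point alone (adjusted p = 0.0342).

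Each of the 2 promoter windows of Tef in RefSeq (GRCm38.p6, 250 bases before to 50 bases after an annotated start) holds a CACGTG E-box, and both are shown because Tef rose in both arms at points 3, 4 and 5 and has E-box letters at both starts. The capitals mark the E-box. It starts at -127 in the first window, chr15:81802423-81802722 on the plus strand, and at -138 in the second, chr15:81811164-81811463 on the plus strand, with negative positions counted back from the start.
Tef first start: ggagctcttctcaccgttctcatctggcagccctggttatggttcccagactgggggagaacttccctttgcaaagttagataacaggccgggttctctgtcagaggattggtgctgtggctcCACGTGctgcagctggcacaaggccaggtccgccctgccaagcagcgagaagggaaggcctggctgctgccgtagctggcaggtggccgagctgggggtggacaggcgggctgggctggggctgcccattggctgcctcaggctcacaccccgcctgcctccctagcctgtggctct
Tef second start: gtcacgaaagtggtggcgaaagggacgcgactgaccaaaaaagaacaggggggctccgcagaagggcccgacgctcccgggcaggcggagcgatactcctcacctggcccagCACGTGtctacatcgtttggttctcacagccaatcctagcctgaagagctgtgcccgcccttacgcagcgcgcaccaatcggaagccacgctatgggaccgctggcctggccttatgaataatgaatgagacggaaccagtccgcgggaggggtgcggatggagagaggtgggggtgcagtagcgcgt
Of the 32851 windows of this length in the table, 7.15% hold CACGTG, on either strand since the sequence is its own reverse complement. A match of letters is a description and not a shown binding site.

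Hlf, the hepatic leukemia factor, was the PAR bZIP gene that was not called along either course. The gene lies on the minus strand of chromosome 11 at 90336536 to 90390895. Insulin livers averaged 13.0 ± 2.35, 14.5 ± 0.709, 12.7 ± 2.39, 13.2 ± 2.04 and 12.9 ± 4.11 FPKM at points 1 to 5 (SD, n = 3 each). PBS livers averaged 16.9 ± 2.43, 16.5 ± 3.58, 23.3 ± 4.19, 19.9 ± 2.39 and 15.5 ± 1.94 FPKM. Differences from point 1 lay between -0.04 and 0.16 in the insulin arm and between -0.12 and 0.43 in the PBS arm, with adjusted p of at least 0.319, and the test of any variation among the 5 points gave adjusted p = 0.932 in the insulin arm and 0.334 in the PBS arm, where 13.3% and 3.27% of all genes were called. At point 3 the insulin libraries had 13.3, 10.1 and 14.8 FPKM, against 20.3, 28.1 and 21.5 FPKM in the PBS libraries. All insulin libraries were below all PBS libraries, as for 27.8% of all genes. The difference, insulin minus PBS, was -0.82 ± 0.19 (SE, adjusted p = 0.00897), or -0.68 relative to the median of all genes. It missed the threshold without insulin replicate 2 or PBS replicate 2 (adjusted p = 0.0575 and 0.0568). The insulin arm itself had not fallen, differing from its point 1 by -0.029 (adjusted p = 0.971). At point 1 the treatments differed by -0.36 ± 0.19, which was not called (adjusted p = 0.631). The difference of the courses at point 3 was -0.46 ± 0.27, also not called (adjusted p = 0.645). At point 4 the groups also did not overlap, at 11.6, 12.5 and 15.5 FPKM in insulin against 22.3, 17.5 and 19.7 FPKM in PBS, and 24.3% of all genes were likewise wholly lower in insulin. The difference of -0.56 just missed the threshold (adjusted p = 0.0511). It was called under 3 of 14 alternatives: without insulin replicate 3 (adjusted p = 0.0296), with a filter at a mean of 5 FPKM (0.0407) and with the replicate block (0.0487).

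The Hlf window is shown because it differs from those of Tef: it holds no CACGTG but a full cyclic AMP response element (CRE), TGACGTCA, at -9. It covers chr11:90390868-90391167 on the minus strand, and the capitals mark the CRE.
Hlf: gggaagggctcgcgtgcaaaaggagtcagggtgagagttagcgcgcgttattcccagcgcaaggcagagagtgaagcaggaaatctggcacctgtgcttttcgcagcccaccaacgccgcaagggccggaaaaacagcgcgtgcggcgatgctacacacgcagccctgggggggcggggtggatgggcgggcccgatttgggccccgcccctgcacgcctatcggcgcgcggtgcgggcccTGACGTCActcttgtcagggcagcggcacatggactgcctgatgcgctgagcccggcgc
The CRE letters are present in 1.79% of all windows, also on either strand. The Dbp window (chr7:45704997-45705296, plus strand) holds none of the motifs searched, which says only that these letters are not within those 300 bases.

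Nfil3, the D-box repressor, was the 1 member whose course was called different between the arms. Its locus is the minus strand of chromosome 13 at 52967209 to 52981073. Insulin libraries had 12.0, 12.6 and 12.4 FPKM at point 1, 21.6, 34.9 and 36.1 FPKM at point 2, 13.4, 42.5 and 16.7 FPKM at point 3, 10.9, 13.5 and 13.4 FPKM at point 4, and 7.15, 9.37 and 8.33 FPKM at point 5. PBS libraries had 10.2, 9.56 and 13.6 FPKM at point 1, 9.21, 6.10 and 5.91 FPKM at point 2, 7.29, 9.74 and 5.71 FPKM at point 3, 9.01, 7.40 and 8.36 FPKM at point 4, and 7.58, 7.35 and 8.52 FPKM at point 5. The groups overlapped at points 1 and 5 and were apart at points 2, 3 and 4, where all insulin libraries were higher, as they were for 4.86%, 7.65% and 8.01% of all genes. At point 3 the insulin libraries spread widely, with replicate 2 far above the other two.

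In insulin livers Nfil3 was higher than in PBS livers by 1.97 ± 0.27 at point 2 (SE, adjusted p = 0.000123), or 2.09 relative to the median of all genes, and its mean was 4.36 times that of PBS livers. The adjusted p stayed between 2.68e-05 and 0.0253 under the 14 alternatives. At point 3 the difference was 1.41 ± 0.27 (adjusted p = 0.00242; 0.077 when the 6 libraries of that point were fitted alone), and at points 4 and 5 it was 0.55 and 0.07 (adjusted p = 0.168 and 0.884). Against its own point 1, Nfil3 rose in the insulin arm at point 2 by 1.22 ± 0.27 (adjusted p = 0.00851), a call that ended without replicate 2 or 3 of point 2 (0.0608 and 0.0549). At point 3 of that arm it differed by 0.74 (adjusted p = 0.0919, and 0.0153 without replicate 1 of point 3, when the difference was 1.06). The PBS arm differed from its point 1 by -0.60, -0.51, -0.38 and -0.45 at points 2 to 5 (adjusted p of at least 0.45), being lower in 3 of 3 replicate series at points 2, 4 and 5.

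The difference of the courses, that is the change from point 1 in insulin minus that in PBS, was called for Nfil3 at point 2, at 1.82 ± 0.38 (SE, adjusted p = 0.0255; 0.375% of all genes called). This call ended under 10 of 21 alternatives: without the filter (adjusted p = 0.0962), without any 1 insulin library of point 1 (0.0671, 0.0663 and 0.0621), without insulin replicate 2 or 3 of point 2 (0.103 and 0.0844), without PBS replicate 1 or 3 of point 1 (0.0561 and 0.0897), and without PBS replicate 2 or 3 of point 2 (0.0946 and 0.0976). Its size stayed between 1.67 and 1.87 in these 10. Whether the difference between the treatments depended on the point was also tested over all 5 points at once, and Nfil3 passed (adjusted p = 0.0127, and 0.0503 without the filter), as did 1.77% of all genes. No other member passed either test. At points 3, 4 and 5, 0 of 7 members had different courses in limma's test (0.736%, 0.787% and 1.06% of all genes called), and 2, 1 and 0 of them had an unadjusted p under 0.05.

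The Nfil3 window, chr13:52980990-52981289 on the minus strand, is shown because it holds a ROR response element (RORE), the site of the ROR activators and REV-ERB repressors of the clock, and no E-box. The capitals mark TGACCTA at -12, the reverse complement of the RORE letters TAGGTCA, and CGTCA at -59, the reverse complement of the CRE core TGACG.
Nfil3: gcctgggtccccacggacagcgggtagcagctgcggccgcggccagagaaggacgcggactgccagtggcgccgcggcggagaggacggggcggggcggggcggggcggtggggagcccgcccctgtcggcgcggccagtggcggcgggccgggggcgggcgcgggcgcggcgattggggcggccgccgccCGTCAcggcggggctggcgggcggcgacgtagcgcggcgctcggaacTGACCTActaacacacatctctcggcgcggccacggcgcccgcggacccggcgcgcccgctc
On either strand, 2.61% of all windows hold TAGGTCA and 20.8% hold TGACG.

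Since the PAR bZIP factors and NFIL3 bind the same D-boxes, the sum of Dbp, Tef and Hlf was also set beside Nfil3 in each library, as a description with no test. The ratio of the summed FPKM to that of Nfil3 averaged 2.30 ± 0.614, 1.31 ± 0.510, 2.53 ± 1.42, 4.31 ± 0.455 and 6.08 ± 0.959 at points 1 to 5 of the insulin arm (SD, n = 3 each). In the PBS arm it averaged 3.21 ± 1.15, 6.30 ± 2.35, 11.6 ± 2.99, 11.5 ± 1.21 and 10.4 ± 2.21. The arms overlapped at point 1, and at points 2 to 5 the highest insulin ratio was below the lowest PBS ratio. At point 2 the summed FPKM alone was close, at 38.1 FPKM in insulin livers and 42.3 FPKM in PBS livers, and at point 3 it was 46.2 ± 7.62 FPKM in insulin livers and 84.1 ± 3.04 FPKM in PBS livers. The gap in the ratio therefore lay in Nfil3 at point 2 and in both quantities at point 3. Transcript levels say nothing here about the amounts of the proteins.

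**Figure D2:**
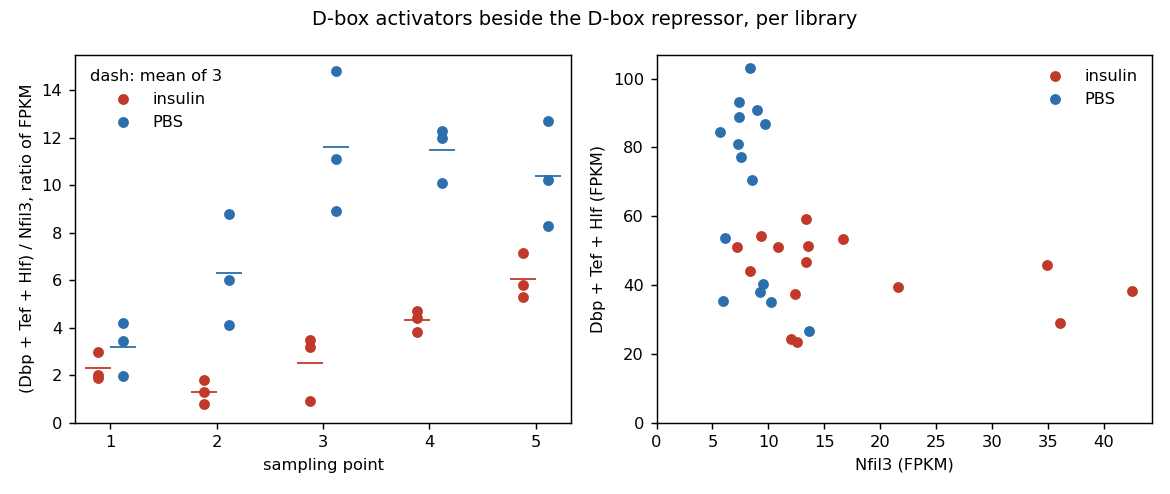
Left, the ratio of the summed FPKM of Dbp, Tef and Hlf to the FPKM of Nfil3 (y axis) at points 1 to 5 (x axis), one dot per library and a dash for the mean of 3, insulin in red left of PBS in blue; right, the same sum (y axis, FPKM) against Nfil3 (x axis, FPKM) in the 30 libraries. The insulin ratios stay at or below 7.14 while the PBS ratios reach 14.8.

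Ciart, a repressor of CLOCK and BMAL1, peaked at point 3 in both arms, where its mean was 21.8 times that of point 1 in insulin livers and 13.4 times in PBS livers. Ciart is on the minus strand of chromosome 3 at 95878503 to 95882251. Insulin replicate 1 of point 1 had no value and was set to 0 in the fit and in these ratios, and the other two libraries of that group had 0.977 and 0.603 FPKM. At point 3 the insulin libraries had 12.5, 13.4 and 8.63 FPKM, against 11.1, 17.4 and 16.8 FPKM in the PBS libraries. The insulin arm averaged 4.41 ± 1.07, 11.5 ± 2.52, 6.35 ± 2.37 and 4.71 ± 1.00 FPKM at points 2 to 5, and the PBS arm 1.12 ± 1.04 FPKM at point 1 and 3.22 ± 2.18, 15.1 ± 3.49, 10.2 ± 1.42 and 8.95 ± 2.39 FPKM at points 2 to 5 (SD, n = 3 each). Against point 1 the insulin arm rose by 1.86, 3.07, 2.28 and 1.94 ± 0.33 (adjusted p = 0.000839, 6.4e-07, 4.53e-05 and 0.000325). The PBS arm rose by 3.00, 2.50 and 2.31 ± 0.33 at points 3, 4 and 5 (adjusted p = 4.98e-06, 5.96e-05 and 0.000206), and its difference of 0.98 at point 2 was not called (adjusted p = 0.258). Every replicate series of both arms was above its own point 1 at all 4 later points. Between treatments no point was called, the nearest being point 5, where the libraries were apart at 4.20, 5.87 and 4.06 FPKM in insulin against 8.59, 11.5 and 6.76 FPKM in PBS (-0.79 ± 0.33, adjusted p = 0.0919). At that point 29% of all genes had every insulin library below every PBS library.

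Ciart is shown because its window holds 3 CACGTG E-boxes, the most of the 7 members with a window, at -116, -58 and -44. It covers chr3:95882179-95882478 on the minus strand, and the capitals mark the E-boxes.
Ciart: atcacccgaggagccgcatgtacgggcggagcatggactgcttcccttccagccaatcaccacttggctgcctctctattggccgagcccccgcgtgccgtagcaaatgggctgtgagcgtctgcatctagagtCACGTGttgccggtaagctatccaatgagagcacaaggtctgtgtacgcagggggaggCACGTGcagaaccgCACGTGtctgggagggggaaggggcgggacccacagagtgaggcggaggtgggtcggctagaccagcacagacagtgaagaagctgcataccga

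Bhlhe40 had the highest rise of the tested members at point 2 in both arms, on the log2(FPKM + 1) scale. By the ratio of means to point 1, Ciart rose as much in the insulin arm (8.37 against 8.34 times). The gene lies on the plus strand of chromosome 6 at 108660629 to 108666925. Insulin libraries had 2.08, 4.09 and 6.11 FPKM at point 1 and 28.4, 40.5 and 33.5 FPKM at point 2, while PBS libraries had 3.78, 3.27 and 6.27 FPKM at point 1 and 15.7, 21.9 and 16.2 FPKM at point 2. The insulin arm then averaged 21.6 ± 11.7, 12.4 ± 0.573 and 15.0 ± 3.24 FPKM at points 3, 4 and 5, and the PBS arm 18.4 ± 2.64, 18.1 ± 3.18 and 15.7 ± 3.11 FPKM (SD, n = 3 each). Replicate 2 of insulin point 3, at 34.8 FPKM beside 12.3 and 17.7 FPKM, is the library that also had the high Nfil3. The rise against point 1 was 2.85, 2.11, 1.48 and 1.72 ± 0.29 in the insulin arm (adjusted p = 7.17e-07, 2.38e-05, 0.00134 and 0.000346) and 1.82, 1.86, 1.84 and 1.64 ± 0.29 in the PBS arm (adjusted p = 0.003, 0.000513, 0.000467 and 0.00257). At point 2 all insulin libraries were above all PBS libraries, as for 4.86% of all genes, and their mean was 1.91 times that of PBS livers. The difference of 0.89 ± 0.29 was not called (adjusted p = 0.12, and 0.0575 to 0.335 over the alternatives). At point 4 the order was turned, with 11.8, 12.9 and 12.7 FPKM in insulin against 17.6, 15.2 and 21.5 FPKM in PBS, again uncalled (-0.49, adjusted p = 0.255). Of all genes, 24.3% were wholly lower in insulin libraries at that point.

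Its paralogue Bhlhe41 was near the limit of measurement. The gene lies on the minus strand of chromosome 6 at 145858243 to 145865558. Insulin livers averaged 0.0902 ± 0.0411, 0.509 ± 0.424, 0.529 ± 0.221, 0.303 ± 0.113 and 0.378 ± 0.218 FPKM at points 1 to 5, and PBS livers 0.0872 ± 0.0166, 0.383 ± 0.0584, 0.798 ± 0.207, 0.683 ± 0.164 and 0.636 ± 0.249 FPKM (SD, n = 3 each). All libraries of points 2 to 5 were above those of point 1 in both arms, as were 7.87%, 10.6%, 11.9% and 8.76% of all tested genes at points 2 to 5 of the insulin arm and 7.85%, 11.3%, 12.3% and 9.23% in the PBS arm. Bhlhe41 could be tested only in the fit without a filter on low values (29117 genes). There it rose in the PBS arm by 0.72 ± 0.15 at point 3 (adjusted p = 0.0222; 0.903% of genes called) and by 0.63 ± 0.15 at point 4 (adjusted p = 0.0474; 1.11%), and at no point in the insulin arm, where the nearest was point 3 (0.48, adjusted p = 0.0982). Insulin against PBS was not called at any point, with -0.37 at point 4 (adjusted p = 0.194). Without the filter, the share of genes called was 1.26%, 3.64%, 3.96% and 3.67% at points 2 to 5 of the insulin arm, 0.11% and 0.625% at points 2 and 5 of the PBS arm, and 0.0103%, 0.471%, 2.78%, 4.21% and 7% for insulin against PBS at points 1 to 5.

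Usp2 rose in both arms, and in the insulin arm its rise at points 3, 4 and 5 exceeded that of the other tested members on the log2(FPKM + 1) scale. By the ratio of means to point 1, Ciart rose more than Usp2 in that arm at point 3 (21.8 against 20.2 times) and at point 5 (8.94 against 7.30 times). The gene lies on the plus strand of chromosome 9 at 44067021 to 44095627. Insulin libraries had 0.633, 0.897 and 1.79 FPKM at point 1, 7.64, 12.1 and 7.53 FPKM at point 2, 22.6, 20.2 and 24.2 FPKM at point 3, 17.6, 27.9 and 20.9 FPKM at point 4, and 9.22, 7.61 and 7.40 FPKM at point 5. PBS libraries had 2.58, 3.00 and 1.36 FPKM at point 1, 6.29, 9.55 and 4.21 FPKM at point 2, 19.4, 19.8 and 20.6 FPKM at point 3, 15.9, 15.7 and 21.2 FPKM at point 4, and 16.7, 10.2 and 8.55 FPKM at point 5. The arms overlapped at all 5 points. The rise in the insulin arm was 2.27, 3.50, 3.47 and 2.14 ± 0.26 at points 2 to 5 (adjusted p = 2.72e-06, 1.5e-09, 3.22e-09 and 5.08e-06). The rise in the PBS arm was 1.19, 2.70, 2.51 and 1.94 ± 0.26 (adjusted p = 0.0307, 4.71e-07, 1.9e-06 and 9.53e-05), of which that at point 2 ended without PBS replicate 1 or 3 of point 1 (0.0535 and 0.145) or replicate 1 or 2 of point 2 (0.0982 and 0.236). The courses differed by 1.08, 0.80, 0.96 and 0.20 ± 0.36, which was not called (adjusted p of at least 0.265). Of these courses, insulin began lower at point 1 by -0.65 (unadjusted p = 0.0176, adjusted p = 0.563). At that point Gm49380, whose exons overlap those of Usp2 on the opposite strand, averaged 0.684 ± 1.18 FPKM in PBS livers and 0 in insulin livers (SD, n = 3 each). Its part in this difference was not tested.

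**Figure D3:**
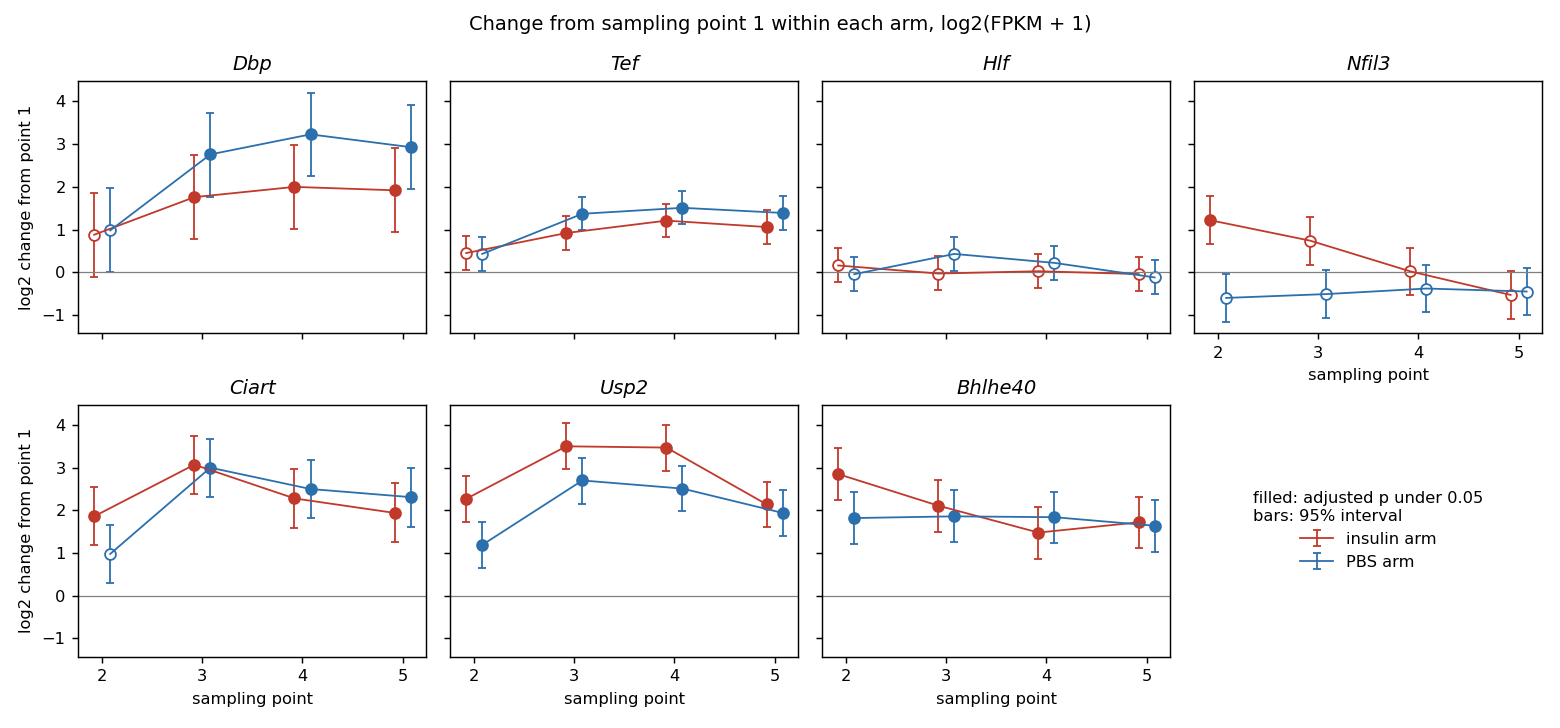
Change from sampling point 1 on the log2(FPKM + 1) scale (y axis) at points 2 to 5 (x axis) for the 7 tested members, insulin arm in red left of PBS arm in blue; bars are 95% intervals and filled symbols have an adjusted p under 0.05. Dbp, Tef, Ciart, Usp2 and Bhlhe40 are filled in both arms at points 3 to 5, Hlf in neither arm, and Nfil3 only at point 2 of the insulin arm.

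**Figure D4:**
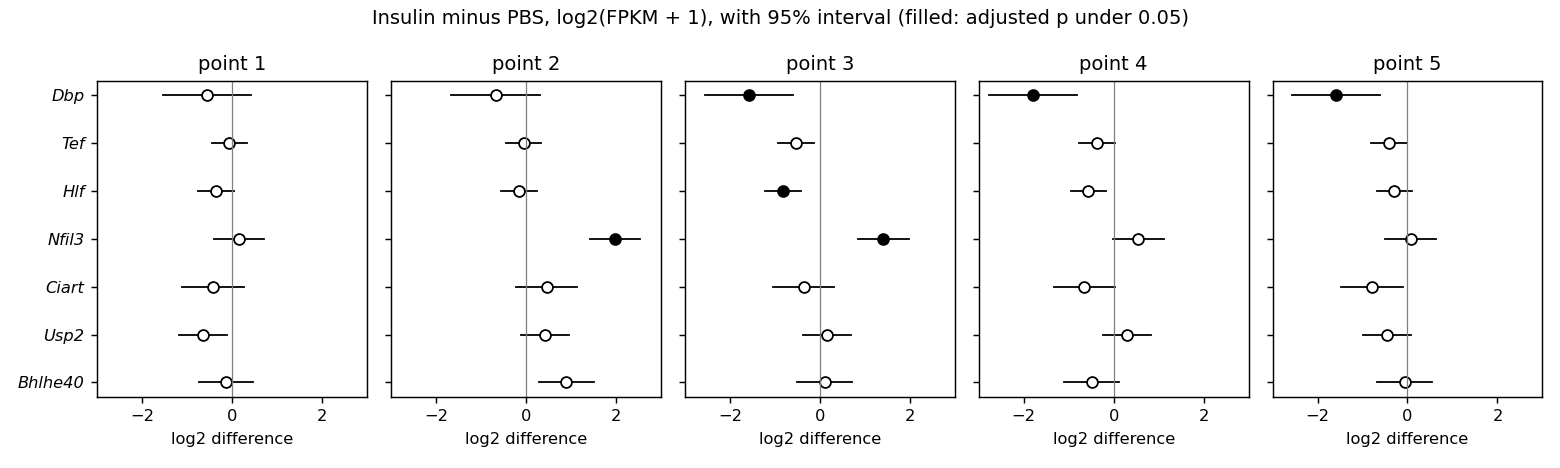
Insulin minus PBS on the log2(FPKM + 1) scale (x axis) for the 7 tested members (rows) at points 1 to 5 (panels), with 95% intervals; filled symbols have an adjusted p under 0.05. Nfil3 lies to the right at points 2 and 3 (1.97 and 1.41), and Dbp to the left at points 3, 4 and 5 (-1.57, -1.80 and -1.58).

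The courses were also read within each replicate number of an arm, which in the PBS arm is a lane of its own. The labels do not say that same-numbered libraries of different points belong together. This matching, also used for the replicate series above, describes the same libraries and is no further test. At points 3, 4 and 5 the changes of Dbp from point 1 lay between 0.65 and 2.79 in the 3 insulin series and between 1.64 and 4.36 in the 3 PBS series. Those of Tef lay between 0.59 and 1.52 in insulin series and between 1.24 and 1.82 in PBS series. All were above 0, as were all changes of Usp2 and Bhlhe40 at points 2 to 5. With lane as a random effect (correlation 0.0264 within lanes) no member gained or lost a call.

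The core clock moved beside its outputs. Of the 12 genes listed, 10 were tested. Npas2 was too low, and Rorb is not analysed here. Arntl, which encodes BMAL1, fell along both courses, to 1.41 ± 0.228 FPKM in insulin livers and 1.54 ± 0.527 FPKM in PBS livers at point 3, against 6.00 ± 1.19 and 6.36 ± 1.16 FPKM at point 1 (SD, n = 3 each). The change was -1.06, -1.53 and -1.45 ± 0.26 at points 2, 3 and 4 of the insulin arm (adjusted p = 0.0187, 0.000264 and 0.000475) and -1.55, -2.14 and -1.63 ± 0.26 at points 3, 4 and 5 of the PBS arm (adjusted p = 0.000905, 1.93e-05 and 0.000771). Among PBS livers the period genes Per2 and Per3 rose at all of points 3, 4 and 5, Per2 by 1.03, 1.16 and 1.16 ± 0.20 and Per3 by 0.93, 1.36 and 1.54 ± 0.18. Period genes also moved in the insulin arm, where Per1 rose by 1.89 ± 0.16 at point 2 (adjusted p = 4.18e-08). Per2 averaged 0.608 FPKM at point 1 and 5.32 FPKM at point 3 of that arm, against 0.766 and 2.58 FPKM in PBS livers. Per3 averaged 0.251 FPKM at point 1 and 1.05 FPKM at point 5 in insulin livers, against 0.314 and 2.87 FPKM in PBS livers. The counts of core clock genes higher and lower than at point 1 were 2 and 1, 6 and 1, 7 and 1, and 3 and 1 at points 2 to 5 of the insulin arm. They were 0 and 0 at point 2 of the PBS arm, where 3 had an unadjusted p under 0.05 in limma's test, and 2 and 1 at each of points 3, 4 and 5. Of all genes, 3.22%, 8.96%, 9.65% and 9.6% were called at points 2 to 5 of the insulin arm, and 2.06%, 4.74%, 5.29% and 3.51% were called higher. In the PBS arm 0.552%, 2.38%, 2.86% and 1.55% were called, and 0.471%, 1.82%, 2.1% and 1.07% were called higher.

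Per1, a clock repressor gene of the period family, was higher in insulin livers at the same point as Nfil3. It averaged 11.0 ± 0.748 FPKM in insulin livers at point 2, against 6.13 ± 0.376 FPKM in PBS livers (SD, n = 3 each), and differed by 0.75 ± 0.16 (SE, adjusted p = 0.0134). At point 1 it averaged 2.26 ± 0.412 FPKM in insulin livers and 4.85 ± 1.02 FPKM in PBS livers, a difference of -0.84 ± 0.16 that was not called (adjusted p = 0.0936, unadjusted p = 2.07e-05). Per1 was also the 1 core clock gene whose course differed between the arms at point 2, by 1.59 ± 0.22 (adjusted p = 0.000658), of which 0.75 is the difference at point 2 and the rest that at point 1. With quantile normalization 1 core clock gene was called lower in insulin livers at point 1. Cry1, which encodes a repressor of the clock, was higher in insulin livers at points 3 and 4, with differences of 0.98 and 0.71 ± 0.18 (adjusted p = 0.00171 and 0.0135). Per3 was lower in insulin livers at points 3, 4 and 5, with differences of -0.72, -0.74 and -0.91 ± 0.18 (adjusted p = 0.0175, 0.0118 and 0.00204), and Cry2 was lower at point 5 (-0.67 ± 0.20, adjusted p = 0.0236). Per2 was higher in insulin livers at point 3 (0.79 ± 0.20, adjusted p = 0.0183) and lower at point 5 (-0.74 ± 0.20, adjusted p = 0.0147). The counts of core clock genes higher and lower in insulin were 0 and 0, 1 and 0, 3 and 1, 1 and 1, and 0 and 4 at points 1 to 5. Of all genes, 0.00736%, 1.35%, 9.45%, 13.2% and 19.1% were called at these points, and 16.1% were called lower at point 5. With median-ratio scaling the core clock counts were 0 and 0, 3 and 0, 3 and 1, 4 and 1, and 2 and 1, so the balance at points 4 and 5 depended on the scaling. The list's median difference was -0.07, 0.18, 0.16, 0.30 and -0.13, beside -0.06, -0.12, -0.14, -0.14 and -0.17 for all genes.

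The 11 listed modifiers of clock proteins are kinases, ubiquitin ligase subunits and the deacetylase gene Sirt1. At points 1 to 5, the number higher in insulin livers was 0, 0, 1, 2 and 2, and the number lower was 0, 0, 1, 1 and 0. Of all genes, 0.00736%, 1.35%, 9.45%, 13.2% and 19.1% were called at these points. At points 1 and 2, 2 and 5 of the 11 modifiers had an unadjusted p under 0.05 in limma's test. With median-ratio scaling 3 were higher and 0 lower at point 3, and 4 higher and 1 lower at point 4, so the balance at point 3 depended on the scaling. Gsk3b, a kinase that insulin signalling inhibits, rose in the insulin arm by 0.60, 0.68 and 0.79 ± 0.15 at points 2, 3 and 4 (adjusted p = 0.025, 0.00486 and 0.00119). No modifier was called in the PBS arm, where 3, 2, 2 and 1 had an unadjusted p under 0.05 at points 2 to 5. Gsk3b averaged 4.77 ± 0.921 FPKM at point 1 and 6.28 ± 0.397 FPKM at point 2 of that arm (SD, n = 3 each). For the difference of courses 0 of 11 modifiers were called at points 2 to 5, and 1, 0, 1 and 0 had an unadjusted p under 0.05. A course of Gsk3b that differs between the arms is therefore not shown. Prkaa2, a catalytic subunit of AMP-activated kinase, was higher in insulin livers at points 3, 4 and 5 by 0.33, 0.39 and 0.38 ± 0.10 (adjusted p = 0.0336, 0.012 and 0.00967). Its means already differed earlier, though no call was made there. At point 1 they were 11.8 ± 1.08 FPKM in insulin livers and 9.20 ± 0.663 FPKM in PBS livers. At point 2 they were 11.7 ± 0.698 and 9.79 ± 0.506 FPKM (SD, n = 3 each). A difference that began at point 3 is therefore not shown.

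Of 8 listed liver genes known to depend on the PAR bZIP factors, 2 were lower in insulin livers at points 3 and 4, as were 7.26% and 10.4% of all genes. None was called at points 1, 2 and 5, where 0, 3 and 0 had an unadjusted p under 0.05 in limma's test. At those points 0.00736%, 1.35% and 19.1% of all genes were called. Nr1i3, the nuclear receptor CAR, averaged 48.9 ± 11.1 FPKM in insulin livers at point 3, against 96.3 ± 7.37 FPKM in PBS livers (SD, n = 3 each), a difference of -0.99 ± 0.19 (SE, adjusted p = 0.00217), and at point 4 the difference was -0.72 ± 0.19 (adjusted p = 0.015). Ppara, the fatty acid receptor, averaged 34.1 ± 8.32 FPKM in insulin livers at point 3, against 63.8 ± 5.35 FPKM in PBS livers, a difference of -0.91 ± 0.15 (adjusted p = 0.000781), with -0.60 ± 0.15 at point 4 (adjusted p = 0.0148). Por, the electron donor of the cytochromes P450, rose in both arms: by 0.75, 1.20 and 1.16 ± 0.21 in the insulin arm (adjusted p = 0.0224, 0.000379 and 0.00061) and by 1.14, 1.41 and 1.25 ± 0.21 in the PBS arm (adjusted p = 0.00233, 0.000216 and 0.00143) at points 3, 4 and 5. Cyp7a1, the first enzyme of bile acid synthesis, is named outside the rule, after its values were seen, because it differed in the other direction. It averaged 36.0 ± 26.8 FPKM in insulin livers and 8.50 ± 3.72 FPKM in PBS livers at point 3, where the groups overlapped, and 60.8 ± 23.4 FPKM in insulin livers and 18.1 ± 3.68 FPKM in PBS livers at point 4, where they did not (SD, n = 3 each). At point 4, 8.01% of all genes were wholly higher in insulin libraries. The Cyp7a1 differences of 1.65 and 1.64 ± 0.59 were not called (adjusted p = 0.0723 and 0.0638). With median-ratio scaling 1 target was called higher at point 4, beside 2 lower. The list's median difference between treatments was -0.11, 0.05, -0.48, -0.14 and -0.28 at points 1 to 5. The median of all genes was -0.06, -0.12, -0.14, -0.14 and -0.17, so at point 4 the list's median did not differ from it.

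**Figure D5:**
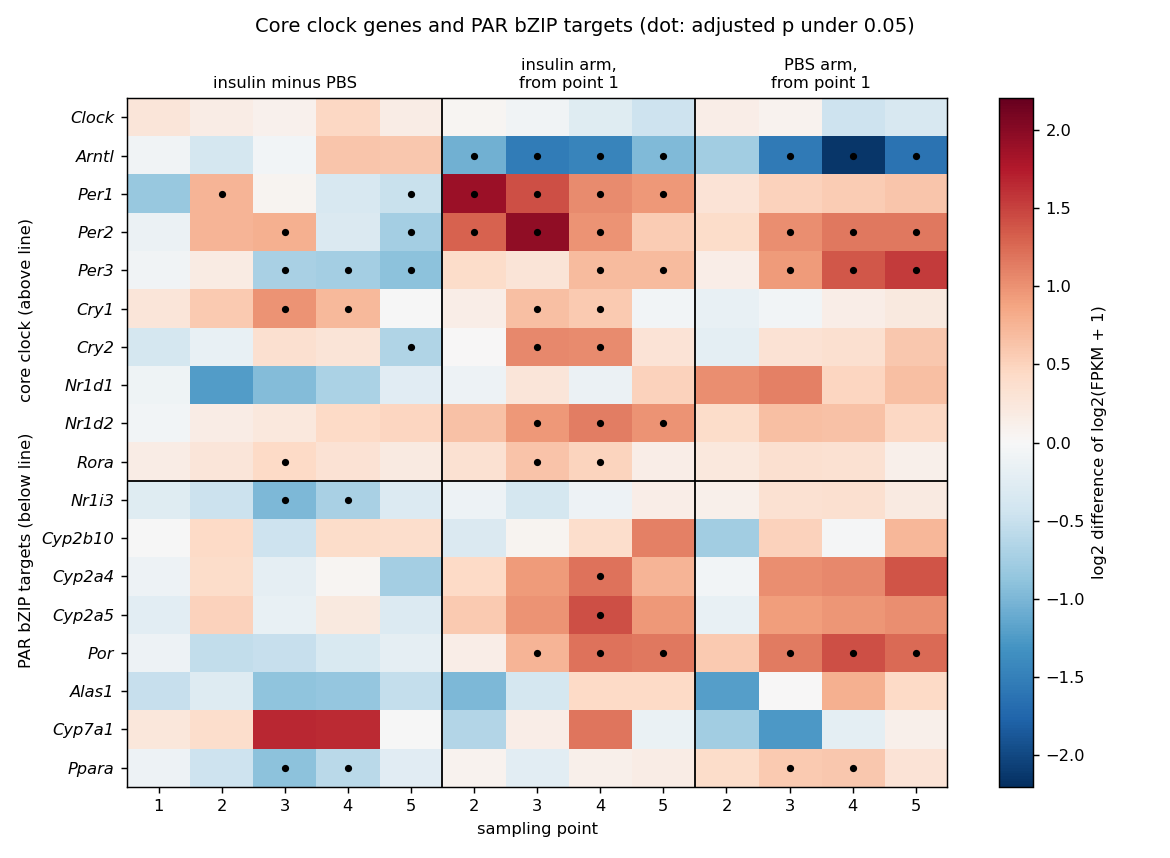
Differences of log2(FPKM + 1) (colour, red higher and blue lower) for the 10 tested core clock genes above the line and the 8 PAR bZIP targets below it; columns are insulin minus PBS at points 1 to 5, then the insulin arm and the PBS arm at points 2 to 5 against point 1, and dots mark an adjusted p under 0.05. Arntl is blue along both courses, Per1 is red at point 2 of the insulin arm (1.89), and Nr1i3 and Ppara are blue for insulin minus PBS at points 3 and 4.

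Across the 30 libraries, which share the same design and so are not independent, Dbp and Tef went together most closely among the members (Pearson r = 0.93 on the log2 scale), followed by Ciart and Usp2 (0.90). Nfil3 had r of -0.48 to Dbp, -0.36 to Tef, -0.38 to Hlf, -0.07 to Ciart, 0.02 to Usp2 and 0.28 to Bhlhe40. Hlf was also loosely tied, with r of 0.50 to Dbp, 0.36 to Tef and to Ciart, 0.23 to Usp2 and 0.13 to Bhlhe40. Among 9867 other genes, those most like each member were Per3, Slc9a3r1 and Epas1 for Dbp (0.89, 0.87 and 0.86), Aacs, Wee1 and Mtss1 for Tef (0.89, 0.89 and 0.88), and Egfl7, Pik3r2 and Tmem134 for Hlf (0.78, 0.78 and 0.77). For Nfil3 they were Fam222a, Btbd19 and Nr4a1 (0.92, 0.88 and 0.86). For Ciart they were Dgat2, Mnt and Efhd2 (0.88, 0.86 and 0.86), for Usp2 Ripk4, Gja4 and Ivns1abp (0.88, 0.87 and 0.87), and for Bhlhe40 Maff, Per1 and Csrnp1 (0.85, 0.84 and 0.84).

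Promoter windows were found in RefSeq for 7 of the 8 members. Besides the windows shown, that of Bhlhe41 (chr6:145865371-145865670, minus strand) holds a CACGTG at -153 and that of Usp2 (chr9:44084670-44084969, plus strand) holds the CRE core TGACG at -4. The Usp2 window lies at a start inside the gene, which begins at 44067021, and no window at that upstream start was searched. The E-box variant CACGTT (4.68% of all windows) and the D-boxes TTATGTAA (0.938%) and TTACGTAA (0.119%) were in none of the 8 windows on either strand. CACGTG thus occurred in 4 windows, of the 3 genes Ciart, Tef and Bhlhe41, all of which were lowest at point 1 in both arms, as were Dbp and Usp2, whose windows hold none, and Bhlhe40, for which no window was found.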

How the data were processed

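The authors deposited 1 table of FPKM, a unit already normalized for transcript length and for mapped fragments. HISAT2 2.1.0, SAMtools 1.9, StringTie 2.0.3 and the build GRCm38 (mm10) are named in the submitters' processing notes. Neither the annotation nor the strand setting is given in the sources used here. The file held 29117 genes in 30 libraries, and 32.2% of its cells held no value and were set to 0, which touched 893 of the tested genes. FPKM sums were 593637 to 680501 per library. At best 41.9% to 49.6% of low values fell within 0.05 of whole reads, so no counts were recovered, the depth is unknown and no count test was run.

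Groups and sampling points were taken from the sample titles and lanes from the sample descriptions. Lanes held 6 and 9 insulin libraries, and 5 PBS libraries on each of the others. The 13589 genes that reached 1 FPKM in 3 or more libraries were fitted as log2(FPKM + 1) with limma 3.58.1 in R 4.3.3, with 10 group means, a mean-dependent prior variance and 20 residual degrees of freedom. The 17 contrasts were insulin minus PBS at each point, each later point minus point 1 in each arm, and the difference of those courses, and 3 F tests asked about variation among points. Tests were two-sided and Benjamini-Hochberg adjusted over all genes tested, with a threshold of 0.05. The p-values measure the spread between samples that the series design calls biological triplicates. No pair of libraries in a group was a repeat (at most 0.0174% identical values).

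The members and the gene lists were chosen with earlier results of these data known, and 1 gene first listed with the core clock is not reported here. All members are named, and from each list at most 3 genes per comparison, those called with the smallest adjusted p. Likeness is Pearson r of log2(FPKM + 1) over 30 libraries among tested genes at a mean of 1 FPKM or more. Gene positions are from GENCODE M21 (GRCm38), which matched 29066 IDs, and promoter windows from RefSeq (GRCm38.p6). Alternatives were 0.1 as the pseudocount, testing all 29117 genes, testing only genes with a mean of 5 FPKM or above, quantile normalization, median-ratio scaling, replicate or series blocks, lane as a random effect, a fit of the compared libraries alone, and each library left out. The fit was tested on simulated data with known changes.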

Additional observations from a re-analysis of the deposited data

Results flagged for a closer look

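Nfil3 is given again because its course differed between the arms by a test of the difference itself. The change from point 1 to point 2 was larger in the insulin arm than in the PBS arm by 1.82 ± 0.38 on the log2(FPKM + 1) scale (SE, limma, adjusted p = 0.0255). This call ended under 10 of 21 alternatives, among them testing without the filter (adjusted p = 0.0962) and leaving out any 1 insulin library of point 1 (0.0671, 0.0663 and 0.0621). The same libraries were also matched by replicate number, which the labels do not tie across points. In the insulin arm Nfil3 was higher than at point 1 in 3 of 3 replicate numbers, with changes between 0.80 and 1.47. In the PBS arm it was lower in 3 of 3, with changes between -1.08 and -0.13. The sinusoidal endothelial marker sum at point 2 was 36.7 to 44.2 FPKM in insulin libraries and 40.0 to 51.6 FPKM in PBS libraries, and its part in the result was not tested.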

How the results depend on the processing

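Of the member results and alternatives run, 0 changed direction once called. Members called for insulin minus PBS at point 4 numbered 0 with a pseudocount of 0.1, 2 with a filter at a mean of 5 FPKM and 2 with the replicate number as a block. At point 5 they numbered 0 with a pseudocount of 0.1, 0 without a filter and 2 with the replicate block (Ciart added, adjusted p = 0.0362). In the PBS arm, 1 member was called at point 2 without a filter and 0 with the compared libraries alone, and 0 at point 5 with the compared libraries alone. Without a filter, 0 members were called for the difference of courses at point 2 and 0 for the dependence of insulin minus PBS on the point. The causes were not tested. Leaving out 1 library at a time, the members called ranged from 1 to 3, 0 to 2 and 0 to 1 for insulin minus PBS at points 3, 4 and 5, from 3 to 4, 4 to 5, 5 to 5 and 4 to 5 for the insulin arm at points 2 to 5, from 1 to 2 for the PBS arm at point 2, and from 0 to 1 for the difference of courses at points 2 and 3. Replicate numbers showed little pairing of insulin with PBS libraries of the same point. Of 15 same-numbered pairs, 1 had deviations correlated above 0.1 (range -0.111 to 0.122). Of the insulin libraries, 5 of 15 correlated best with their own number. Libraries of different points were not compared in this check. With the replicate block, the genes called for insulin minus PBS numbered 5, 450, 1957, 2344 and 3173 at points 1 to 5, against 1, 184, 1284, 1799 and 2596 without it. With the series block, 1607 genes were called at point 5 of the insulin arm, against 1304 without it. More genes were thus called with these blocks, and what same-numbered libraries share was not tested. Bhlhe41 and the point 1 values of Ciart lie near the lowest measurable level, where the pseudocount sets the size of a difference, as for Ciart at point 1 (-1.21 with 0.1 against -0.43).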
